A study of Saccharomyces cerevisiae with 3 samples.

Results

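The genes described here encode the enzymes and regulators of fatty acid, phospholipid and sphingolipid synthesis in Saccharomyces cerevisiae, budding yeast. They were chosen by name, as 46 genes, and matched by locus tag to the rows of the array table, which covers 6172 genes. The table holds a row for 45 of them, and 34 have a value on at least 1 array. The remaining gene was not analysed here. The strain is labelled WSC1extMID2cyt and has the BY4741 background. Wsc1 and Mid2 are plasma membrane sensors of cell wall stress, and the labels give no more of the construct than its name. A culture in YEPD, a rich medium, at 24 °C was split. The treated part received 15 ng/ml caspofungin, an echinocandin that inhibits synthesis of the cell wall polymer beta-glucan, and the untreated part did not; both parts were harvested after 2 hours. Each 2-colour array carried RNA of both parts, and 3 arrays, numbered 1, 2 and 4, were analysed. Treated RNA was labelled with Cy3 on array 1 and with Cy5 on arrays 2 and 4. Both parts carry the same construct, so no effect of the construct itself was measured.

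Yeast builds saturated acyl chains with acetyl-CoA carboxylase and fatty acid synthase, desaturates them with Ole1, and lengthens them in the endoplasmic reticulum by a cycle of condensation, reduction, dehydration and reduction. Phospholipids are made either from CDP-diacylglycerol or, in the Kennedy pathway, from imported or recycled choline and ethanolamine. The activators Ino2 and Ino4 and the repressor Opi1 set the transcription of many of these genes, and INO1 is their best known target. Sphingolipids start from serine and palmitoyl-CoA, receive hydroxyl groups and a very long acyl chain, and end as inositol-containing lipids of the plasma membrane, the membrane that also holds the drug's target enzyme.

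The deposited values are log ratios between treated and untreated RNA. Base 2 was assumed, and whether a positive value means more or less transcript with caspofungin is not given in the sources used here. Values are therefore placed on the positive or the negative side, and both names would be exchanged if the sign were turned. Of the genes of the cell wall integrity response, known for transcription under wall stress, 16 had values on at least 2 arrays. Of these, 14 were positive and 0 negative on every array with a value (18.5% and 45.9% of all genes on at least 2 arrays). Of 2 further genes with a value on array 4 alone, BGL2 had 0.44 and SPI1 -2.69. The negative side is thus the one opposite to most of these genes. Array 1 gave values for 2520 genes, array 2 for 1924 and array 4 for 741. Over all values of an array, the median ratio came to -0.20 for array 1, -0.22 for array 2 and 0.09 for array 4. Across genes, Pearson's r was 0.58 between arrays 1 and 2 (1863 genes), 0.53 between arrays 2 and 4 (590 genes) and 0.07 between arrays 1 and 4 (616 genes). Genes on one array share its dyes and hybridisation and are not independent. Of the lipid genes, 31 had a value on array 1, 28 on array 2 and 5 on array 4, so nearly all of what follows rests on arrays 1 and 2. These arrays may come from the same culture, in which case an SD over them holds technical spread only.

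OLE1 (YGL055W), the gene of the fatty acid desaturase that introduces the double bond of oleic and palmitoleic acid, had the lowest mean ratio among lipid genes measured on at least 2 arrays. Its log2 ratio was -1.59 on array 1 and -2.26 on array 2, and array 4 gave no value. Both values lay on the negative side and in both dye orientations, 14th lowest of 2520 on array 1 and 20th lowest of 1924 on array 2. The mean was -1.92 ± 0.47 (SD, n = 2 arrays), a 3.79-fold difference. Centred on each array's median, the mean was -1.71. OLE1 was the 1 gene of 27 that differed by at least 2-fold to the negative side on every array with a value, a criterion met by 0.843% of the 1899 genes on at least 2 arrays. The positive criterion was met by 0 of the 27 (1.84% of all such genes). After centring the counts were again 1 and 0, against 0.421% and 2.53% of all such genes. The activators that drive OLE1 transcription from the endoplasmic reticulum, MGA2 and SPT23, were measured on array 1 alone, at -0.24 and 0.05. Both lay within the middle of that array, at the 46.0th and 71.2th percentile.

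**Figure D1:**
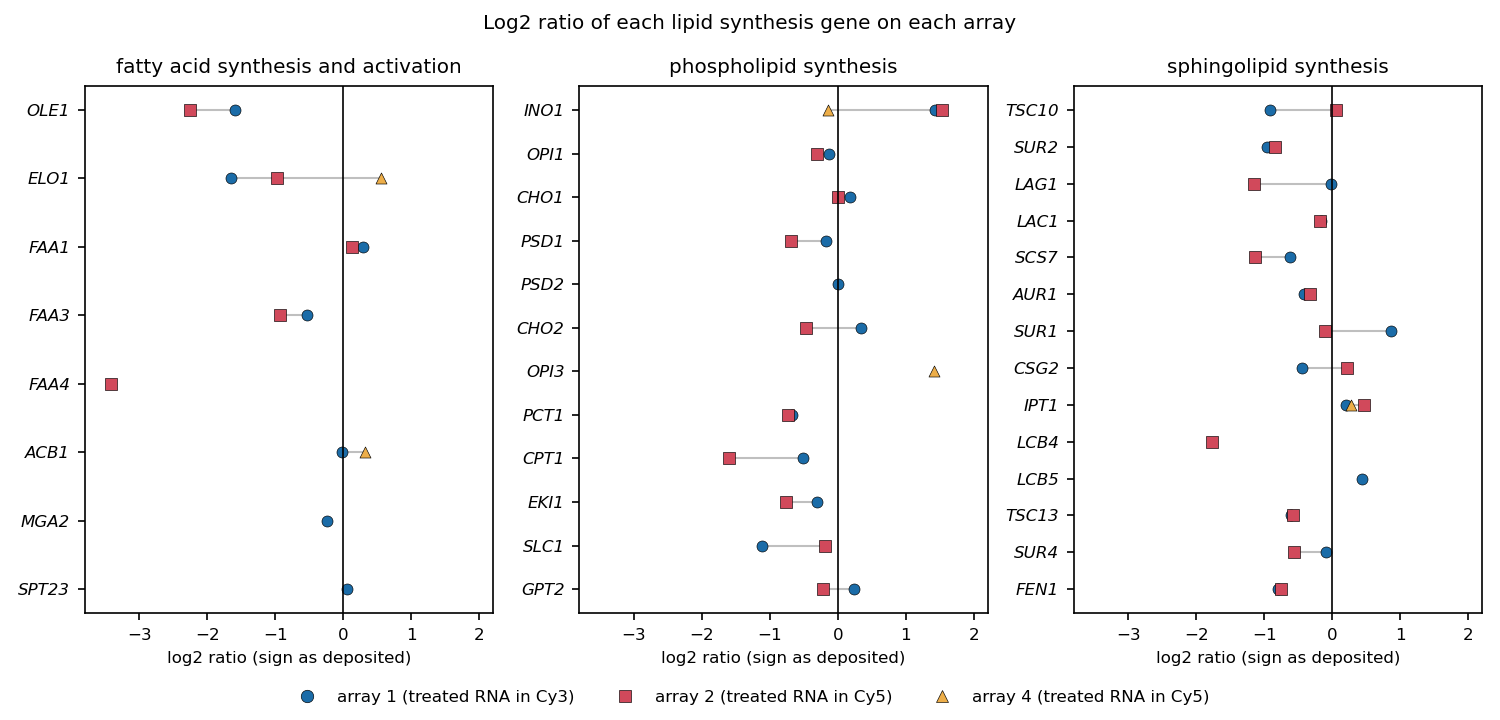
The log2 ratio (horizontal axis, sign as deposited) of each lipid gene with a value is plotted for each array, in panels for fatty acid, phospholipid and sphingolipid synthesis; circles are array 1, squares array 2 and triangles array 4, and grey lines join the lowest and highest value of a gene. OLE1 lies at -1.59 and -2.26, INO1 at 1.43 and 1.53 with -0.15 on array 4, and only 5 genes have a triangle.

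The remaining genes of fatty acid supply did not share one side. ACC1, FAS1 and FAS2, which encode acetyl-CoA carboxylase and both subunits of fatty acid synthase, had no value on any array. Among the acyl-CoA synthetases, which activate free fatty acids, FAA1 had 0.29 on array 1 and 0.13 on array 2, whereas FAA3 had -0.53 and -0.92. FAA3 thus lay 0.81 below FAA1 on array 1 and 1.06 below it on array 2. FAA4 was measured on array 2 alone, at -3.41, the 8th lowest value of that array. Faa1 and Faa4 are the main importers and activators of long-chain fatty acids, and the value of FAA4 has no second array to set beside it. ACB1, the acyl-CoA-binding protein that carries activated chains, had -0.02 on array 1 and 0.32 on array 4.

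Chain elongation was covered at each step of its cycle. The elongases that perform the condensation are encoded by ELO1, which acts on medium-length chains, and by FEN1 (ELO2 in the reference) and SUR4 (ELO3), which make the very long chains of sphingolipids. ELO1 had -1.65 on array 1, -0.97 on array 2 and 0.55 on array 4, with a mean of -0.69 ± 1.13 (SD, n = 3 arrays). The values of arrays 1 and 2 were on the negative side and that of array 4 on the positive side, and arrays 2 and 4 have the same dye orientation. ELO1 did not pass the test over both possible culture pairings (limma, adjusted p = 0.76). FEN1 had -0.80 and -0.75 on arrays 1 and 2, a mean of -0.78 ± 0.03, and 7.89% of all genes on both arrays had a smaller difference between them. SUR4 had -0.10 and -0.57. On both arrays FEN1 was the lower of this pair, by 0.70 and 0.19. The ketoreductase and dehydratase steps are not among the 46 genes: IFA38 (ketoreductase) had -2.30 on array 4 alone, and PHS1 (dehydratase) had -0.90, -0.38 and 0.09 on arrays 1, 2 and 4. TSC13, the enoyl reductase that closes the cycle, had -0.61 and -0.58 on arrays 1 and 2. ELO1, FEN1, SUR4, PHS1 and TSC13 were negative on both arrays 1 and 2, as were 52.6% of the 1863 genes measured on both, and SUR4 on array 1 was 0.10 above that array's median. On array 4 the elongation genes were divided, ELO1 and PHS1 being positive and IFA38 negative.

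INO1 (YJL153C), the inositol phosphate synthase that makes the inositol of phosphatidylinositol and of sphingolipid head groups, was the lipid gene farthest to the positive side on arrays 1 and 2. Its log2 ratios on arrays 1, 2 and 4 were 1.43, 1.53 and -0.15. The first 2 values nearly coincide and rank 40th and 26th highest of their arrays, while the value of array 4 lies on the other side. The mean was 0.94 ± 0.94 (SD, n = 3 arrays) and did not pass (limma, adjusted p = 0.595). OPI1, the repressor of INO1, had -0.12 and -0.31, close to the medians of arrays 1 and 2. INO2, INO4 and ITR1, which encode both activators and the inositol transporter, had no value.

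Other genes known for regulation by Ino2 and Ino4 were not all on the side of INO1. Of 15 such genes besides INO1 among the 46, 6 had at least 2 values, all on arrays 1 and 2. On both arrays 4 of the 6 were negative and 1 positive, as were 980 and 367 of all 1863 genes measured on both. After centring, 2 of the 6 were negative on both (30.1% of the 1863 genes). The median of the 6 was -0.32, against -0.19 for all 1899 genes, and -0.11 against -0.01 after centring. CHO1, the phosphatidylserine synthase, had 0.18 and 0.01. PSD1, the mitochondrial decarboxylase that turns phosphatidylserine into phosphatidylethanolamine, had -0.17 and -0.68, and its counterpart PSD2 was listed at exactly 0 on array 1. The methyltransferase gene CHO2, for the first step from phosphatidylethanolamine to phosphatidylcholine, had 0.35 and -0.47, on different sides. OPI3, for the later methylation steps, was measured on array 4 alone, at 1.42, the 28th highest of 741. CDS1, CKI1 and EPT1 had no value.

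The Kennedy pathway was measured for PCT1, CPT1 and EKI1, each negative on both arrays, as were 52.6% of all genes. PCT1, the phosphocholine cytidyl transferase that sets the rate of the choline branch, had -0.67 on array 1 and -0.73 on array 2, a mean of -0.70 ± 0.04 (SD, n = 2 arrays). CPT1, the cholinephosphotransferase that completes phosphatidylcholine, had -0.51 and -1.60, a mean of -1.05 ± 0.77. The value of array 2 ranked 44th lowest there, and that of array 1 lay at the 21.1th percentile, so its size differed between arrays more than for 95.5% of genes. EKI1, the ethanolamine kinase, had -0.30 and -0.77. For phosphatidic acid, the precursor of all of these lipids, the acyltransferase gene SLC1 had -1.11 and -0.19, and GPT2, for the preceding acylation, had 0.24 and -0.22. SLC1 was 37th lowest on array 1 and near the median on array 2, so only the side was shared.

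In sphingolipid synthesis, the hydroxylase genes had the lowest means of those measured on both arrays. SUR2, which hydroxylates the long-chain base, had -0.96 on array 1 and -0.84 on array 2, a mean of -0.90 ± 0.09 (SD, n = 2 arrays, as for the genes that follow). SCS7, which hydroxylates the very long acyl chain, had -0.63 and -1.14, a mean of -0.89 ± 0.36. Both genes stayed on the negative side after centring, at -0.69 and -0.67. Sur2, Scs7 and Ole1 are all oxygen-dependent, membrane-bound di-iron enzymes; this grouping was made after the values were seen.

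The steps from serine to ceramide were covered in part. LCB1 and LCB2, which encode serine palmitoyltransferase, had no value. TSC10, the ketosphinganine reductase that acts next, had -0.91 and 0.05, which differ by more than 93.8% of genes did. Ceramide synthase is encoded by the paralogues LAG1 and LAC1. LAG1 had -0.01 and -1.15 and LAC1 -0.16 and -0.19, so LAG1 lay 0.15 above LAC1 on array 1 and 0.96 below it on array 2. No order of the pair repeated. Of the long-chain base kinase genes, LCB4 had -1.76 on array 2 alone and LCB5 0.43 on array 1 alone.

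Genes of head group addition did not share one side. AUR1, the inositol phosphorylceramide synthase, had -0.42 and -0.32, a mean of -0.37 ± 0.07. SUR1 and CSG2 form a mannosyltransferase that acts next; SUR1 had 0.86 and -0.11, and CSG2 had -0.45 and 0.21. These subunits lay on opposite sides of zero on each array and exchanged sides between arrays. IPT1, which adds the last inositol phosphate, had 0.20, 0.47 and 0.27 on arrays 1, 2 and 4. Of the 3 lipid genes among the 46 with a value on every array it was the one positive on all of them, with a mean of 0.31 ± 0.14 (n = 3 arrays), and did not pass (limma, adjusted p = 0.661).

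**Figure D2:**
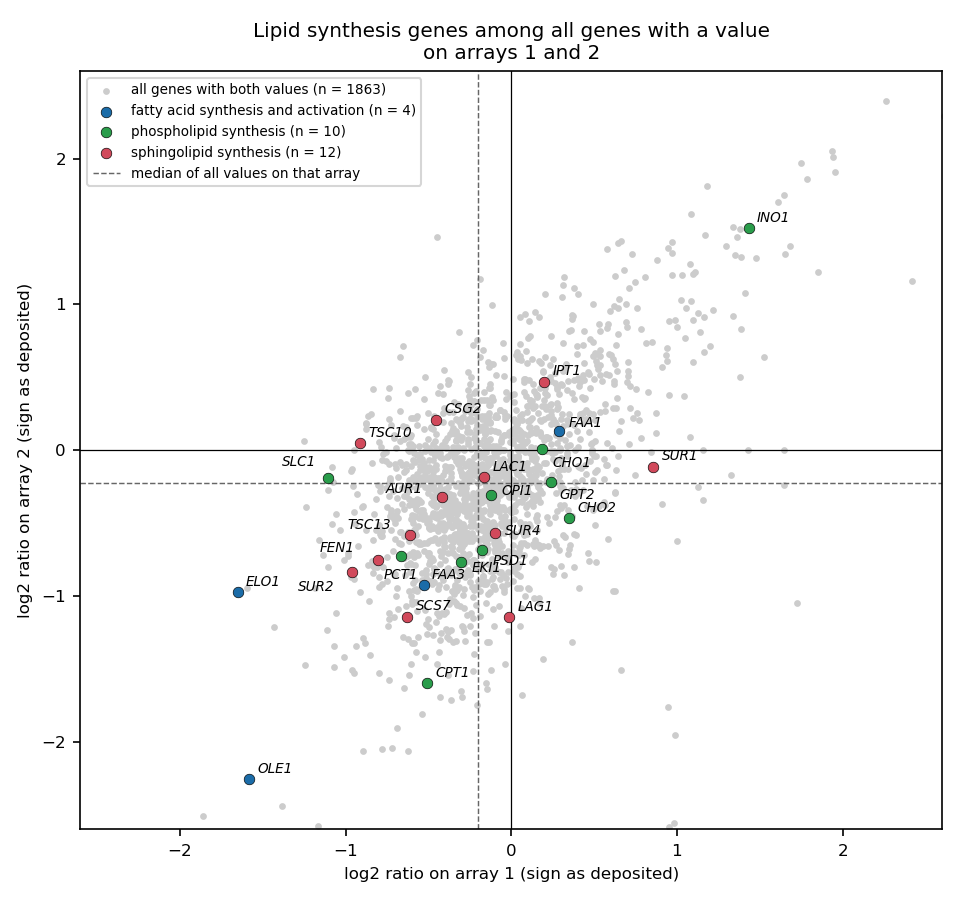
The log2 ratio on array 2 (vertical axis) is plotted against that on array 1 (horizontal axis), with grey points for all 1863 genes measured on both and coloured points for 4 fatty acid, 10 phospholipid and 12 sphingolipid genes; dashed lines mark each array's median and 25 genes lie outside the axes. OLE1 sits in the lower left corner, INO1 in the upper right, and 17 of the 26 lipid genes lie below 0 on both arrays (solid lines), as do 980 of all 1863 genes; 11 of the 26 lie below both medians.

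The test of single genes could reach 3 of the lipid genes, ELO1, INO1 and IPT1, because it was run on genes with a value on all 3 arrays. It compared each gene's ratio with 0 by limma under both assignments of array 1 to a culture and kept the larger p. It called 0 of 585 genes on either side (0.0%), and 67 genes (11.5%) had an unadjusted p under 0.05, none of them a lipid gene. With arrays counted as separate replicates and genes on at least 2 arrays admitted, OLE1 passed on the negative side (limma, adjusted p = 0.018), as 1 of 27 lipid genes, where 0.737% of 1899 genes did. No lipid gene passed on the positive side there (1.79% of all genes). Arrays 1 and 2 alone, taken as separate replicates, called 6 lipid genes of 26 on the negative side (6.44% of 1863 genes) and 1 on the positive side (4.78%). These were OLE1 (limma, adjusted p = 4.06e-05), ELO1 (0.00208), CPT1 (0.0173), SUR2 (0.0187), SCS7 (0.0247) and FEN1 (0.0374), and INO1 (0.000385). Both fits with separate replicates compared uncentred ratios with 0, and the medians of arrays 1 and 2 were -0.20 and -0.22. Neither fit was repeated after centring, so negative calls include this offset. Array 1 shares its culture with array 2 or with array 4. For genes on all 3 arrays, the fit of separate replicates thus counts arrays of one culture as independent, and its p-values are too small under either pairing. If arrays 1 and 2 share a culture, p-values of genes on these arrays alone are also too small and compare hybridisations rather than cultures. The calls of ELO1 and INO1 also leave out array 4, which lay on the other side for both.

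Across the 27 lipid genes with at least 2 values, 16 (59.3%) were negative and 3 (11.1%) positive on every array with a value, against 45.9% and 18.5% of the 1899 genes. Their median ratio was -0.43 and that of all genes -0.19. With each array centred on its median, 10 (37.0%) were negative and 7 (25.9%) positive, against 28.6% and 30.7% of all genes, and the medians were -0.22 and -0.01. On arrays 1 and 2 together, 17 of 26 lipid genes were negative on both (52.6% of 1863 genes), and 11 of 26 were below both medians (30.1%). Medians were -0.69 for 5 genes of fatty acid synthesis, -0.32 for 10 of phospholipid synthesis and -0.40 for 12 of sphingolipid synthesis. After centring they were -0.51, -0.11 and -0.19, against -0.01 for all genes. The sphingolipid group includes FEN1, SUR4 and TSC13, described above with elongation and each negative on arrays 1 and 2. Negative on every array with a value were 2 of the 5, 6 of the 10 and 8 of the 12 (45.9% of all genes). In each group 1 gene was positive throughout (18.5%). With each array centred, the negative counts were 2, 3 and 5 (28.6%). The fatty acid median of -0.69 is the mean of ELO1, which was positive on array 4. Without array 1 or array 2, the phospholipid median rests on INO1 alone (0.69 and 0.64) and the sphingolipid median on IPT1 alone (0.37 and 0.23). The fatty acid median then rests on ELO1 alone without array 1 (-0.21) and on 2 genes without array 2 (-0.20). No group was tested as a list. At least 2-fold to the negative side was reached by 3 of 31 lipid genes on array 1 (OLE1, ELO1 and SLC1; 2.18% of all genes), by 6 of 28 on array 2 (FAA4, OLE1, LCB4, CPT1, LAG1 and SCS7; 8.0%) and by 0 of 5 on array 4 (13.9%). To the positive side it was reached by INO1 on array 1 (3.57% of all genes) and on array 2 (3.79%) and by OPI3 on array 4 (9.72%).

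Lipid genes outside the 46 were described from lists of the same pathways. Other sphingolipid genes, most of them for regulation and breakdown, had a median of 0.33 over 9 genes. Of these, 5 were positive and 3 negative on both arrays 1 and 2, as were 367 and 980 of all 1863 genes measured on both. The test over genes on at least 2 arrays was passed by 0 of the 9. The difference from the 12 synthesis genes was not tested. The positive ones were YSR3, a base phosphate phosphatase, at 0.61 ± 0.30 (SD, n = 2 arrays, as for the others here), SLM1, a plasma membrane regulator of the Ypk kinases, at 0.49 ± 0.40, ORM2, an inhibitor of serine palmitoyltransferase, at 0.37 ± 0.35, the ceramidase gene YDC1 at 0.33 ± 0.17, and ISC1, which releases ceramide from inositol sphingolipids, at 0.33 ± 0.18. The negative ones were LCB3, a homologue of YSR3 with the same activity, at -0.81 ± 0.02, LIP1, a subunit of ceramide synthase, at -0.39 ± 0.23, and DPL1, the lyase that breaks down base phosphates, at -0.22 ± 0.02. YPK1, the kinase that acts on the Orm proteins, had 0.84 and -0.01, on different sides. YSR3 and LCB3 thus lay on opposite sides on both arrays.

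**Figure D3:**
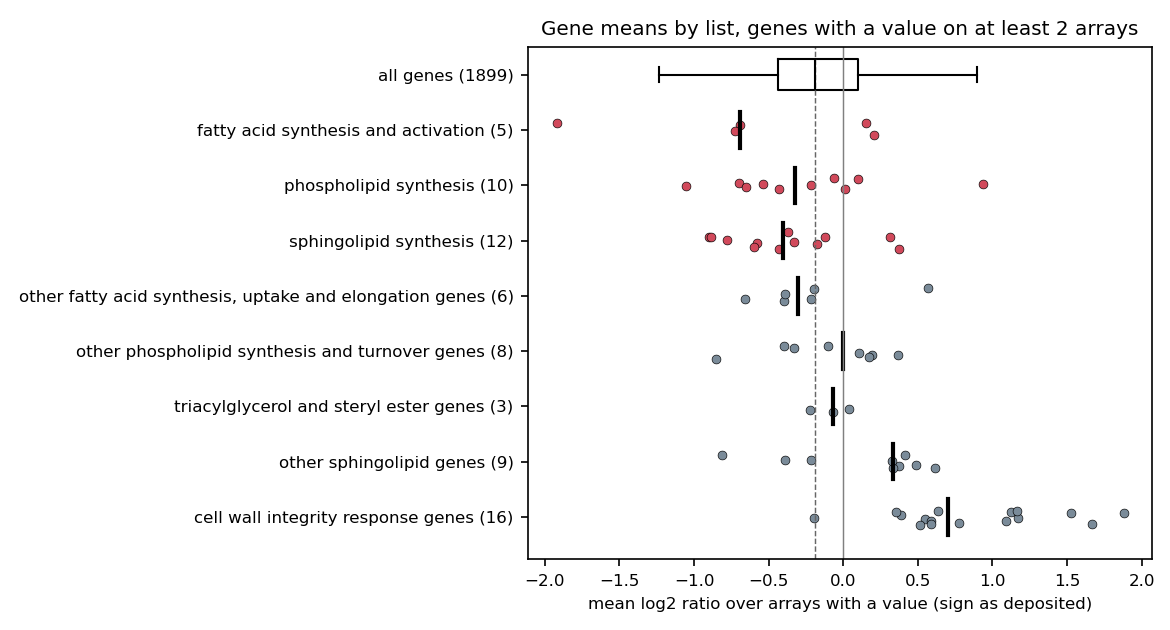
Mean log2 ratios over arrays with a value (horizontal axis, sign as deposited) are plotted for genes with at least 2 values; the box shows the quartiles of all 1899 genes with whiskers to the farthest value within 1.5 interquartile ranges, points are genes, thick bars are list medians, the dashed line is the median of all genes and numbers in brackets count genes. The medians of the groups of synthesis genes lie at -0.69, -0.32 and -0.40, that of other sphingolipid genes at 0.33 and that of cell wall integrity response genes at 0.70.

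Other phospholipid genes had a median of 0.00 over 8 genes, with 2 positive and 3 negative on every array (18.5% and 45.9% of all genes) and 0 calls. After centring, 1 of the 8 was negative on every array (28.6% of all genes). ALE1, an acyltransferase that acts beside Slc1, was the lowest at -0.85 ± 0.48 and DGK1, the diacylglycerol kinase, had -0.39 ± 0.35. URA8, a CTP synthase, had 0.19 ± 0.02, and GDE1, which breaks down glycerophosphocholine, had 0.17 ± 0.25 over 3 arrays. SCS2, the endoplasmic reticulum protein that anchors Opi1, had -0.46, -0.03 and 1.60, so that array 4 alone lay far to the positive side. Of 6 other fatty acid genes with at least 2 values, 1 was positive and 3 were negative on every array, shares near those of all genes, with a median of -0.30 (-0.09 after centring). BPL1, the ligase that attaches biotin to acetyl-CoA carboxylase, had 0.57 ± 0.11, and MCT1 and ETR1 of mitochondrial fatty acid synthesis had -0.66 ± 0.78 and -0.39 ± 0.19. The 3 genes of triacylglycerol and steryl ester metabolism with at least 2 values lay between -0.23 (ARE1) and 0.04 (DGA1), and YEH1, a steryl ester hydrolase, had -1.24 on array 1 alone. Beta-oxidation was measured for 2 of 11 genes, FOX2 at -0.60 on array 1 and PXA2 at -0.16 ± 0.06. None of the genes in these lipid lists passed the test over both culture pairings or the one that admitted genes with at least 2 values. Calls with arrays 1 and 2 alone, given above for the synthesis genes, were not listed for these lists. Under that fit FEN1 passed, at a mean of -0.78 ± 0.03. LCB3, at -0.81 ± 0.02, had a lower mean and a smaller SD. The lack of calls in these lists therefore does not set them apart from the synthesis genes. Of 16 cell wall integrity response genes, 4 passed on the positive side with arrays as separate replicates and genes on at least 2 arrays (1.79% of all genes). These were NCW2, PUN1, SED1 and CWP1. Each has values on 3 arrays, so that fit counts arrays of one culture as independent for them. The test over both culture pairings called 0 of the 9 genes of this list that it could reach.

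Of 5 mating type markers of MATa cells, MFA2, STE2 and BAR1 had values, on the negative side on each array with a value. MFA2 had -1.23 on array 2 alone, and BAR1 had -0.96 and -1.51 on arrays 1 and 2. STE2 had -0.88, -1.32 and -0.18 on arrays 1, 2 and 4. Of all genes on at least 2 arrays, 45.9% were negative on every array with a value. None of the 4 MAT alpha markers had a value, and since 3471 of 6172 genes have none this says nothing about the mating type. A value was present for 75.6% of the 45 lipid genes with a row, against 43.8% of all genes. Which spots the authors left out, and whether their signal was low or saturated, is not given in the sources used here.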

How the data were processed

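Two-colour array values were analysed for 3 arrays of treated against untreated RNA. The authors deposited log2 ratios, 1 per row and array; base 2 is assumed, and the direction and how spots were filtered and normalized are not stated. Array 1, with the opposite dye orientation, correlated with array 2 at r = 0.58 and with array 4 at 0.07. Neither is below 0, and its sign was kept. The value of 0.07 is too close to 0 to favour either sign, so this choice rests on array 2. Depth has no meaning here, and the number of arrays limits the precision. Of 6209 rows, 2 are controls; the RefSeq gene table (assembly R64) named 5654 through the locus tag and 57 through a synonym, and rows of one gene were averaged. SLC1 and FEN1, which are also synonyms of other genes, were taken as the acyltransferase YDL052C and the elongase YCR034W. No coordinates are given. Without probe sequences, shared signal between paralogues was not tested.

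The series text describes 2 cultures with both dye orientations each. Arrays 2 and 4 have one orientation and so differ in culture; which of them shares a culture with array 1 is not stated. For the 585 genes with 3 values, limma 3.58.1 under R 4.3.3 compared the ratio with 0, once after averaging arrays 1 and 2 and once after averaging arrays 1 and 4. The larger p was adjusted by Benjamini-Hochberg, and the threshold was 0.05. Each p-value weighs the mean ratio of a gene against the spread between these samples, which limma moderated across genes. The code was tested on simulated data. Named genes were the lipid genes on 3 arrays, those with a mean of at least 0.8 in size and one sign, and a fixed set of main enzymes; the others were named after their values were seen. In the other lists the rule was the 2 highest and 2 lowest means of one sign, and further genes were added after their values were seen. The genes and lists were chosen with earlier results of these data known. Alternatives were other replicate definitions, centring, scaling, array 1 turned and each array left out.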

Additional observations from a re-analysis of the deposited data

How the results depend on the processing

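The count of genes past the threshold, 0 of 585, was also 0 under each culture pairing alone, without moderation, after centring and with array 1 turned. It was 2 with 3 separate replicates, with or without a dye term, 17 after scaling the arrays to one spread, 48 of 1899 with genes on at least 2 arrays and arrays as separate replicates, and 0 to 209 with 1 array left out and the others as separate replicates (leaving out array 1 gave 17 of 590 genes, array 2 gave 0 of 616 and array 4 gave 209 of 1863). The count of lipid genes at 2-fold on the negative side, 1, was 5 at 1.5-fold, 0 with array 1 turned and 0 to 1 with 1 array left out. The share of all genes at 1.5-fold was not computed, so the count of 5 has no background beside it. On the positive side the 2-fold count was 0, and 0 to 1 with 1 array left out (INO1 without array 4). The median of all lipid genes, -0.43, was 0.31 over the 3 genes with 3 values, and between -0.43 and 0.37 with 1 array left out, where 3 or 4 genes remain without array 1 or array 2; with array 1 turned it was -0.077. The fatty acid median was -0.077 with array 1 turned and -1.02 to -0.20 with 1 array left out. Only 1 gene remains in it without array 1, and 2 genes without array 2. The phospholipid median was -0.11 after centring, -0.16 with array 1 turned, 0.94 for the 1 gene with 3 values and -0.32 to 0.69 with 1 array left out. The sphingolipid median was -0.19 after centring, 0.019 with array 1 turned, 0.31 for the 1 gene with 3 values and -0.40 to 0.37 with 1 array left out. The cause of the differences between arrays was not tested. Without array 4, ELO1 (-1.31) and INO1 (1.48) passed. Of 111 recomputed values of 27 lipid genes 102 kept their sign, 3 turned after centring and 6 with 1 array left out. Array 1 turned is not among these settings. The 16 negative and 3 positive genes of one sign on every array cannot turn by scaling or by leaving out an array, so much of this count was fixed in advance. No paired analysis was possible because there is 1 group of arrays, so no replicate numbers are shared between groups; each ratio already pairs both parts of a culture.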
